A study of Mus musculus with 8 samples.

Results

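The neurotrophins and the GDNF family are secreted growth factors of nerve cells. The genes described here are 9 of their ligands and receptors, found by name among the 20681 genes of a table of RNA levels in mouse knee joints: Bdnf, Ntf3, Ngfr, Ntrk2, Ntrk3, Gdnf, Gfra1, Gfra2 and Ret. All 9 were found, and all 9 passed the filter on low values that left 14949 genes to be tested. The table holds 8 joints, 4 of them controls and 4 conditional knockouts of the collagen-crosslinking enzyme Loxl2. All 8 joints are described as coming from Acan-Cre;Loxl2 fl/fl mice, in which Cre under control of the aggrecan locus, active in cartilage cells among others, can delete a floxed Loxl2. The control joints are described as vehicle-treated and their library names carry LOXL2wt, those of the knockout joints LOXL2ko. What the knockout joints received in place of vehicle, the age of the mice and the time after injury are not given in the sources used here. The abbreviation DMM stands in every library name without being explained, and the study's title speaks of post-traumatic injury. No group is described as uninjured.

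Neurotrophins bind the Trk receptor kinases, each with its preferred ligand, and also share the p75 receptor encoded by Ngfr. Brain-derived neurotrophic factor (Bdnf) acts through TrkB (Ntrk2), and neurotrophin 3 (Ntf3) mainly through TrkC (Ntrk3). GDNF family ligands bind a membrane-anchored co-receptor, GFRα1 (Gfra1) for GDNF and GFRα2 (Gfra2) for neurturin, and the complex activates the kinase Ret. In a joint these receptors are known from sensory and sympathetic nerve fibres and from the Schwann cells that ensheath them, and several are also made by cells that are not neural. The cell bodies of the sensory neurons lie in ganglia outside the joint.

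The libraries held 13991000 to 17411617 reads. Loxl2 itself went against its label, with normalised read counts of 282, 349, 1135 and 311 in the controls and 893, 1468, 960 and 1518 in the libraries labelled knockout (log2 difference 1.44, adjusted p = 0.0294 with limma, p = 0.0857 by exact permutation). Its limma call was lost on leaving out any of 5 single libraries and with edgeR, DESeq2 and the replicate block, and groups are named by their labels throughout. Whether labels were exchanged was not tested, and an exchange of the groups would turn the sign of every difference given here. Control replicate 3 stood apart from the other controls in Loxl2. Muscle genes were lower and fibroblast and macrophage genes higher in the libraries labelled knockout: the 16 muscle markers summed to 2484000 to 2687000 in control libraries and 1220000 to 1706000 in those labelled knockout, and the 8 macrophage markers to 2817 to 6668 and 9880 to 14080. In whole tissue, fewer cells of a type and less RNA per cell cannot be told apart. The labels do not say that each library came from a separate animal, so p-values measure only the spread between these libraries.

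The neurotrophins resemble one another, as do their Trk receptors, which matters for whether reads can be told apart. The stretches below are the coding windows around the longest run of bases that a pair of related members shares, from the GENCODE M21 transcripts on GRCm38 (mm10), with the shared run in capitals, written 5′ to 3′ on the coding strand.
Ntrk2 (chr13:59054374-59054463, plus strand, exon 15): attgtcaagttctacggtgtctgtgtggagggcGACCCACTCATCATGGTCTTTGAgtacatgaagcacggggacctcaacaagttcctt
Ntrk3 (chr7:78250703-78250792, minus strand, exon 14): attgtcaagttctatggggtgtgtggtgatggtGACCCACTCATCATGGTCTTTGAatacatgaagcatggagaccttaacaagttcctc
Bdnf (chr2:109724069-109724149, plus strand, exon 2): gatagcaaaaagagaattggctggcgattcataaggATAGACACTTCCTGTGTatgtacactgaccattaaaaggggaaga
Ntf3 (chr6:126101729-126101812, minus strand, exon 2): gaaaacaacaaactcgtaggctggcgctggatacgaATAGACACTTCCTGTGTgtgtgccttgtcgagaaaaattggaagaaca
The longest shared run was 23 bases between Ntrk2 and Ntrk3 and 17 between Bdnf and Ntf3. Over the aligned coding sequence these pairs were identical at 62.9% and 54.6% of bases. The Ntrk windows lie in the part that encodes the kinase, and the Bdnf and Ntf3 windows at the carboxyl end of the mature growth factors.

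Of the 9 genes, only Gfra1 rose, and none fell, at an adjusted p under 0.05 in the linear model fitted with limma over all tested genes. Among all tested genes 11.6% were called higher and 11.6% lower, so 1 member of 9 (11.1%) lay near the background. The estimates of all 9 were above 0, with a median log2 difference (libraries labelled knockout minus control) of 0.54, whereas 7480 of all 14949 tested genes were higher and their median was 0.00. The 9 values come from the same libraries and are not independent of each other, and the members were chosen with earlier results of these data known. Of the 5 other ligands and receptors tested and reported here, 4 were above 0 and 1, the neurotrophin gene Ntf5, was below (-0.53). Each member stayed above 0 under the other scalings of the libraries and with edgeR and DESeq2. With a score of 16 muscle genes as a covariate 7 were above 0, with Ntrk2 at -0.36 and Ret at -0.32, and 8 were above 0 without control replicate 1, 2 or 4 or without replicate 3 or 4 labelled knockout. Groups did not overlap for 2 members, Gfra1 and Ntrk2 (22.2%), against 11.7% of all tested genes with separate and higher values in the libraries labelled knockout.

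**Figure D1:**
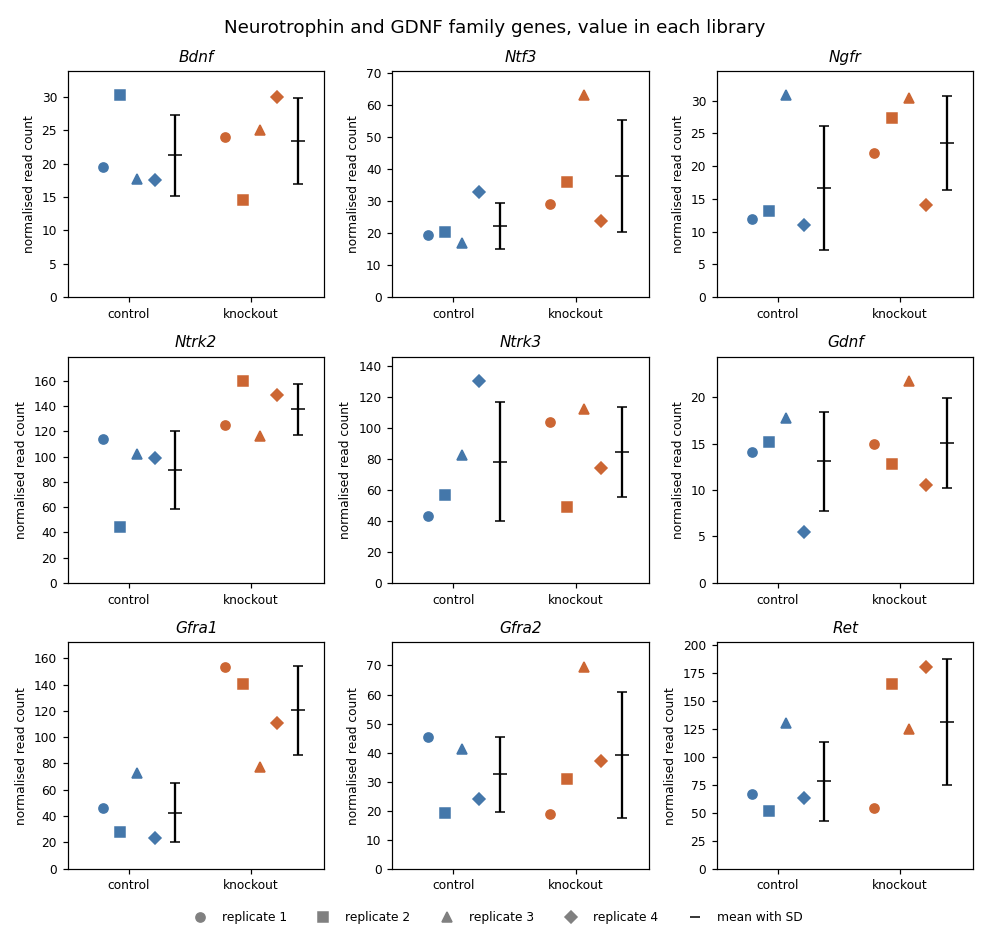
Normalised read count (vertical axes, from 0) of each of the 9 genes in every library, with symbols for the replicate numbers and a bar for mean and SD of the 4 libraries of a group. The groups are separate for Gfra1 and Ntrk2, and overlap for the other 7 genes.

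The GDNF co-receptor was the member that passed the test. Gfra1 (chr19:58235604-58455909, minus strand) had 46.5, 28.3, 72.9 and 23.0 normalised reads in the controls (replicates 1 to 4, the order used throughout), and 154, 140, 77.2 and 111 in the libraries labelled knockout. The highest control, replicate 3, lay just below the lowest library labelled knockout, also numbered 3, and all other libraries were well apart. The means were 42.7 ± 22.5 (SD, n = 4) and 120 ± 33.9, a log2 difference of 1.57 (SE 0.36, 95% interval 0.76 to 2.37, limma adjusted p = 0.0154). The exact permutation p was 0.0286, the smallest that 4 against 4 libraries can give. It kept its call in 18 of the 18 alternative fits without the muscle score, with adjusted p-values from 0.000624 to 0.0453 and differences from 1.33 to 1.87. With the muscle score in the model the difference was 1.03 (SE 0.92, limma adjusted p = 0.976). The groups accounted for 83.8% of the score's variance, and limma then called 0 genes, with 667 at an unadjusted p under 0.05.

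The control with the most Gfra1 also had the most fibroblast RNA of its group, and the library labelled knockout with the least Gfra1 had the least. The same 2 libraries were highest and lowest of their groups in the summed macrophage markers (6668 and 9880) and synovial lining markers (34130 and 26850). In the chondrocyte and osteoblast sums the highest control was replicate 1 (13210 and 7587). The lowest library labelled knockout was replicate 1 for chondrocyte markers (10860) and replicate 2 for osteoblast markers (6305). The 12 fibroblast markers summed to 73750, 39230, 95230 and 29910 in the controls and to 188900, 182200, 122900 and 198000 in those labelled knockout. Of these markers 12 of 12 were higher and 7 were called, where 11.6% of all tested genes were called higher, Fbln1 (log2 difference 1.67, limma adjusted p = 0.00397) and Pdgfra (1.31, limma adjusted p = 0.0105) with the smallest p. None of the 12 was at 0. The 14 Schwann cell markers summed to 1842 to 2573 and 2089 to 3016, with overlapping groups, and their 13 tested genes had a median log2 difference of -0.25. Among the controls their sum was, like Gfra1, highest in replicate 3 and lowest in replicate 4. Among the libraries labelled knockout it was highest in replicate 3, which had the least Gfra1. In that list S100b (1.18, limma adjusted p = 0.00588), which cartilage cells also express, and Pmp22 (0.55, limma adjusted p = 0.0162), also made by fibroblasts, were called. The part of any cell type's content in the Gfra1 difference was not tested.

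**Figure D2:**
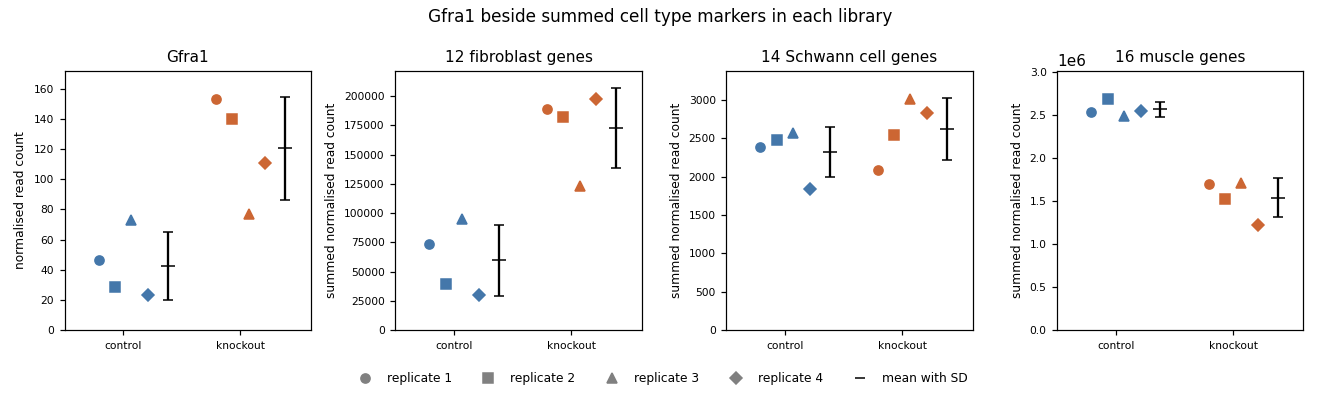
Gfra1 (normalised read count) and the summed normalised read counts of 12 fibroblast, 14 Schwann cell and 16 muscle markers in each library, with mean and SD of 4 libraries per group and axes from 0. Fibroblast sums are higher and muscle sums lower in every library labelled knockout than in any control, Gfra1 is separate in the same direction as the fibroblast sums, and the Schwann cell sums overlap.

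The co-receptor for neurturin did not pass the test. Gfra2 (chr14:70890120-70979838, plus strand) had 45.4, 19.2, 41.1 and 24.1 normalised reads in the controls and 18.9, 30.8, 69.6 and 37.0 in the libraries labelled knockout. Its groups overlapped, with all 4 controls inside the range of the libraries labelled knockout, and the highest value was in replicate 3 labelled knockout, the library with the least Gfra1 of its group. The log2 difference was 0.20 (95% interval -0.74 to 1.13, limma adjusted p = 0.764), an interval that includes a rise of more than 1. Gfra2 lies 1.19 Mb from the targeted gene on chromosome 14. Within each library the log2 ratio of Gfra1 to Gfra2 was 0.03, 0.54, 0.81 and -0.06 in controls and 2.95, 2.15, 0.15 and 1.56 in those labelled knockout. The difference in that ratio, 1.37, did not pass the exact permutation test (p = 0.0857, 0.257 adjusted over the 3 ratios compared), so the change in Gfra1 was not shown to differ from that in Gfra2. Without replicate 3 labelled knockout the ratio differed by 1.89 (exact permutation p = 0.0286, not adjusted over the 3 ratios). On leaving out any other single library the exact permutation p was 0.0857 to 0.143.

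Ret, the kinase on which both co-receptors signal, varied widely within the groups. Ret (chr6:118151745-118197718, minus strand) had 67.1, 51.5, 130 and 63.5 normalised reads in controls and 53.9, 165, 125 and 180 in the libraries labelled knockout. Control replicate 3 lay among the high libraries and replicate 1 labelled knockout among the low ones, although the latter held the most Gfra1. The groups differed by 0.70 in log2 (SE 0.40, adjusted p = 0.227 with limma, p = 0.2 by exact permutation). Without replicate 1 labelled knockout it was 1.07 and passed with limma (adjusted p = 0.0448) but not by exact permutation (p = 0.0857). Leaving out any other library gave no call, with differences down to 0.50 and limma adjusted p-values up to 0.457.

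Gdnf, the ligand of this receptor complex, was the least abundant of the 9 in reads. Gdnf (chr15:7810846-7837575, plus strand) had 14.1, 15.1, 17.8 and 5.48 normalised reads in controls and 15.0, 12.8, 21.7 and 10.6 in the libraries labelled knockout, from 5 to 20 reads a library. The variance within groups was 1.81 times that of counting alone, and the log2 difference of 0.24 had an interval from -0.69 to 1.18 (limma adjusted p = 0.704). With this spread between libraries a difference of the size seen was not detectable, and the interval includes a rise of more than 1 in log2.

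Among the neurotrophin receptors, TrkB had separate groups without passing the test. Ntrk2 (chr13:58806569-59133970, plus strand) had 114, 44.4, 102 and 98.6 normalised reads in controls and 125, 160, 116 and 149 in the libraries labelled knockout. Control replicate 2 lay far below the other controls, which nearly reached the lowest library labelled knockout. The groups differed by 0.68 in log2 (SE 0.28, 95% interval 0.06 to 1.31, unadjusted limma p = 0.0348, adjusted p = 0.102, exact permutation p = 0.0286). Over the 18 alternative fits apart from the muscle score it ranged from 0.38, without control replicate 2, to 0.84, with adjusted p-values of 0.0628 to 0.206. The table gives 1 value per gene, so the kinase form of TrkB and its truncated forms, among 7 annotated coding transcripts, were not separated.

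TrkC was close to level between the groups. Ntrk3 (chr7:78175959-78738012, minus strand) had 43.3, 56.5, 82.3 and 130 normalised reads in controls and 104, 48.7, 112 and 73.9 in those labelled knockout, with overlapping groups (log2 difference 0.17, 95% interval -0.65 to 0.98, limma adjusted p = 0.77). The highest value of all 8 was in control replicate 4. The log2 ratio of Ntrk2 to Ntrk3 differed by 0.52 between the groups (exact permutation p = 0.343, 0.514 adjusted over 3), so no difference between the receptors was shown.

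The p75 receptor is a marker of immature and repair Schwann cells as well as a neurotrophin receptor. Ngfr (chr11:95568818-95587735, minus strand) had 11.9, 13.1, 30.84 and 10.95 normalised reads in controls and 21.9, 27.4, 30.4 and 14.1 in the libraries labelled knockout. The highest of all 8 was control replicate 3, and the other controls lay below every library labelled knockout. The log2 difference was 0.54 (95% interval -0.35 to 1.42, limma adjusted p = 0.348). Without control replicate 3 it was 0.86 (limma adjusted p = 0.112). That control also held the largest Schwann cell sum of its group, 2573, as did replicate 3 labelled knockout, 3016, which had the most Ngfr of its group. The endothelial sums were highest in the same libraries, 5217 and 6181. Control replicate 4 was lowest of its group in both the Schwann cell sum, 1842, and Ngfr. Elsewhere the orders differed. Replicate 4 labelled knockout had a Schwann cell sum of 2831 but the least Ngfr of its group. Replicate 1 labelled knockout had the smallest sum of its group, 2089, with 21.9 in Ngfr. Control replicate 2 had a sum of 2479 with 13.1 in Ngfr. The log2 ratio of Ngfr to Ntrk2 differed by -0.15 (exact permutation p = 0.771).

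**Figure D3:**
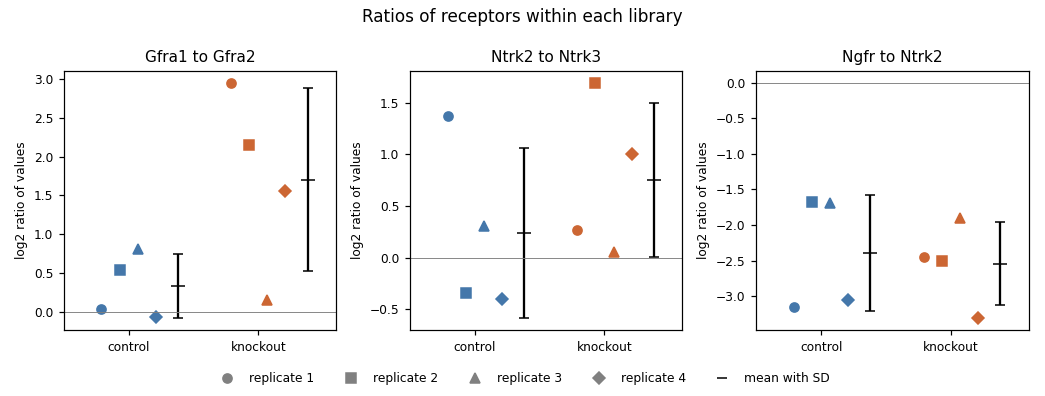
Log2 ratio of normalised values between receptors in each library, with mean and SD of 4 libraries per group. The Gfra1 to Gfra2 ratio lies above 1.5 in 3 of the libraries labelled knockout and at 0.15 in replicate 3, and the other ratios overlap between the groups.

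The neurotrophins among the 9 genes, Bdnf and Ntf3, had few reads and did not pass. Bdnf (chr2:109674700-109727007, plus strand) had 19.5, 30.3, 17.8 and 17.5 normalised reads in controls and 23.9, 14.5, 25.0 and 29.9 in the libraries labelled knockout. The highest library was a control and the lowest was labelled knockout (log2 difference 0.12, limma adjusted p = 0.807). The 95% interval, -0.58 to 0.82, ended below a log2 difference of 1, which held for 2 of the 9 members, the other being Ntrk3. Ntf3 (chr6:126101412-126166910, minus strand) had 19.5, 20.2, 16.8 and 32.9 normalised reads in controls and 28.9, 35.9, 63.1 and 23.8 in those labelled knockout. Control replicate 4 exceeded 2 libraries of the other group, and the log2 difference was 0.69 (95% interval -0.09 to 1.46, limma adjusted p = 0.175, exact permutation p = 0.0857). Replicate 3 labelled knockout carried much of it, with 0.41 remaining without that library.

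Bdnf, Ntrk2, Ntrk3 and Gfra1 overlap antisense genes in the annotation, and since the use of strand in counting is not given in the sources used here, reads of those partners may be included. The same holds for the partner genes Plcg1, Shc2, Rapgef1, Sort1, Sorl1, Bex1, Sorcs2, Ptprj, Sdc3 and Ncam1 and for Cercam and Ptk7, named further on, which overlap a gene on the other strand. So do Loxl2 and the named cell type markers S100b, Avil, Pdgfra, Htra4, Prg4, Casq1, Hapln1, Runx2, Cdh5, Des, Alas2 and Mpo. Ntf3, Ngfr, Gdnf, Gfra2 and Ret overlap no other annotated gene.

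Levels can be compared between genes only per length. Per kilobase of annotated exon in the controls the order ran from Ntf3 (13.0 ± 4.18 normalised reads, SD, n = 4) through Ret (11.5 ± 5.21), Gfra2 (9.17 ± 3.61), Gfra1 (7.79 ± 4.11), Ngfr (4.85 ± 2.75), Ntrk2 (4.65 ± 1.597), Gdnf (3.57 ± 1.45) and Bdnf (3.42 ± 0.98) to Ntrk3 (2.59 ± 1.27). In the libraries labelled knockout Gfra1 stood second at 22.0 ± 6.19, beside Ntf3 at 22.1 ± 10.2. In both groups the ranges of all neighbours in the order overlapped across libraries. Within libraries, Gfra1 was above Ngfr in 4 of 4 controls, and Ngfr above Gdnf and Bdnf above Ntrk3 in 4 of 4 libraries labelled knockout. The order depends on the length used, since Ntrk2 and Ntrk3 have long alternative exons: per kilobase of the main coding transcript Ntrk2 had rank 3 in controls, at 10.3.

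Further ligands and receptors of both families were examined in the same fit, and 0 of the 5 tested and reported here were called in either direction by limma, with 2 at an unadjusted p under 0.05 (Ntf5 and Artn). Of all 14949 tested genes, limma called 23.2% in either direction, and 5741 had an unadjusted p under 0.05. DESeq2 called 1, Ntf5 (adjusted p = 0.0485), and edgeR none. Ntf5, neurotrophin 4, a second ligand of TrkB, had 146, 155, 117 and 169 normalised reads in controls and 90.8, 89.8, 136 and 91.5 in the libraries labelled knockout. Replicate 3 labelled knockout lay above control replicate 3, and all other libraries were apart, with less Ntf5 in those labelled knockout (log2 difference -0.53, 95% interval -0.94 to -0.12, limma adjusted p = 0.0612, exact permutation p = 0.0571). It passed without control replicate 3 (adjusted p = 0.0393) or replicate 3 labelled knockout (0.0189). Artn, the ligand artemin, had 10.8, 10.1, 10.3 and 5.48 normalised reads in controls and 10.97, 14.5, 31.5 and 18.5 in those labelled knockout, groups that were only just separate (log2 difference 0.91, limma adjusted p = 0.128). Nrtn, neurturin, had 117 ± 15.9 and 142 ± 27.0 (0.27, limma adjusted p = 0.274). Gfra3, the artemin co-receptor, ranged from 9.09 to 13.1 and from 6.84 to 20.25 (0.21, 0.729), and Gfra4, the persephin co-receptor, had 30.6 ± 9.29 and 32.8 ± 13.5 (0.05, 0.937). Pspn, persephin, was at 0 to 7 reads and was not tested, and Gfral was not found among the gene names analysed.

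**Figure D4:**
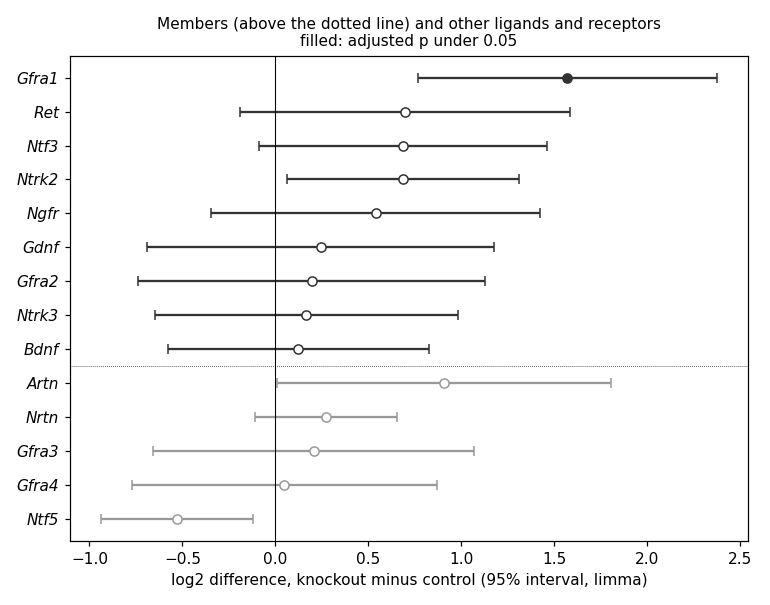
Log2 difference (libraries labelled knockout minus control, horizontal axis) with its 95% interval from limma for the 9 members and 5 other ligands and receptors, with filled symbols for an adjusted p under 0.05. Only Gfra1 is filled, and the intervals of 7 members include 0.

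Partners of the neurotrophins moved in both directions. Of 29 listed genes 26 were tested, 7 were called higher and 5 lower (median log2 difference 0.14), where 23.2% of all tested genes were called. Those that rose included Plat, tissue plasminogen activator, which acts in the cleavage of proneurotrophins (119 ± 24.6 to 295 ± 58.5 normalised reads, log2 difference 1.30, limma adjusted p = 0.00431), and Maged1, which binds p75 (0.95, 0.00911). The adaptors Shc1 (0.44, 0.0275) and Shc2 (0.86, 0.034), the Trk effector Plcg1 (0.35, 0.029) and Arhgdia (0.36, 0.0344), whose product p75 binds, also rose. Among the sorting receptors, Sort1, sortilin, the co-receptor of p75 for proneurotrophins, fell from 1203 ± 117 to 631 ± 137 (log2 difference -0.95, limma adjusted p = 0.00556), and Sorl1 fell by 0.63 on the log2 scale (0.00917). Sorcs2, another p75 co-receptor, rose instead (1.22, 0.0388), though its groups overlapped and it lost the call with the replicate block (adjusted p = 0.0613) and without control replicate 2 or 4 or replicate 1, 2 or 4 labelled knockout (0.0762 to 0.0985). Rapgef1 (-0.57, 0.00456), Sh2b1 (-0.38, 0.0153) and Bex1 (-0.60, 0.038), which act downstream of Trk or p75, fell. Of these 12, Plat, Maged1, Sort1, Sorl1 and Rapgef1 kept their calls in all 18 fits other than the muscle score. Shc1, Plcg1, Arhgdia, Sh2b1 and Bex1 lost theirs with the replicate block (adjusted p 0.0757, 0.0737, 0.0753, 0.0569 and 0.0636). Leaving out a control ended the calls of Shc1 (replicate 2 or 4), Plcg1 (2, 3 or 4), Shc2 (1), Arhgdia (1, 2 or 4) and Bex1 (1, 2 or 4). Leaving out a library labelled knockout ended those of Shc1, Plcg1 and Shc2 (replicate 1, 2 or 4), Arhgdia (2, 3 or 4) and Bex1 (1, 3 or 4), with limma adjusted p-values up to 0.0966.

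Partners of the GDNF receptors were also called in both directions. Of 17 listed genes 14 were tested, 7 were called higher and 2 lower (median log2 difference 0.67, against 0.00 for all tested genes, of which 11.6% were called higher and 11.6% lower). Ncam1, an alternative GDNF receptor, rose from 201 ± 65.3 to 364 ± 49.96 (log2 difference 0.90, limma adjusted p = 0.0176), and Sdc3, a syndecan that binds GDNF, from 792 ± 216 to 1432 ± 328 (0.87, 0.0159). The phosphatases Ptprf (1.25, 0.00822) and Ptprj (0.96, 0.0128), which act on Ret, the kinase Src (1.39, 0.0118) and the docking protein Dok1 (0.94, 0.00912) also rose. Ptpn11 (-0.45, 0.015), a phosphatase recruited to Ret and many other receptors, and Pard3 (-0.36, 0.0298) fell. The 6 rises named kept their limma calls in all 18 fits other than the muscle score. Pard3 lost its call with the replicate block (adjusted p = 0.0874) and without control replicate 2, 3 or 4 or replicate 3 or 4 labelled knockout (0.0509 to 0.0809). Most of these partners serve many receptors and are made by many cell types.

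**Figure D5:**
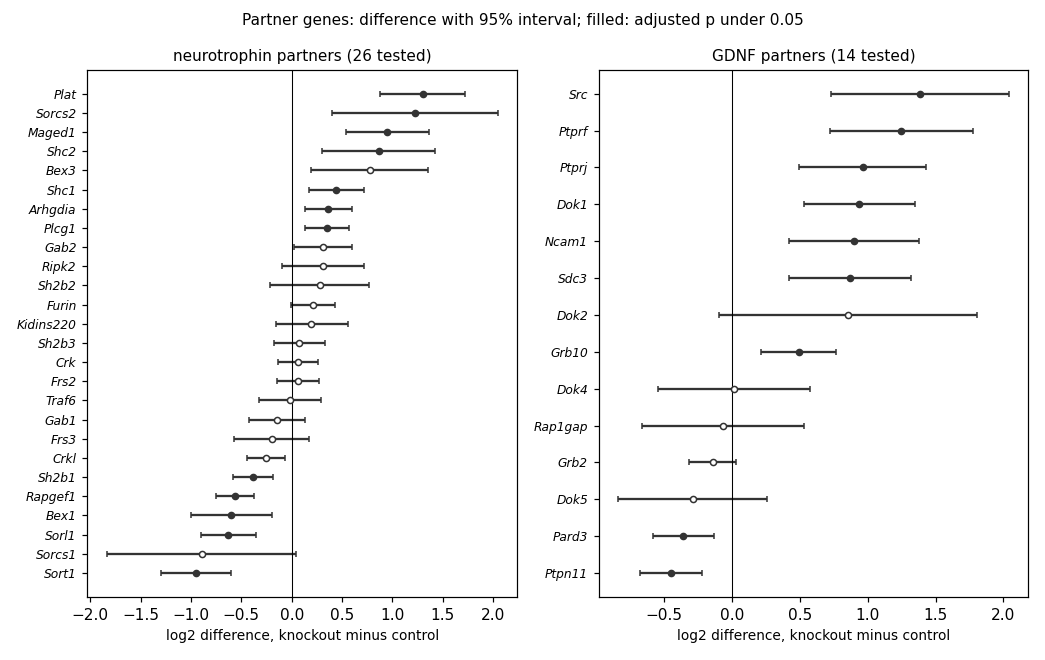
Log2 difference (libraries labelled knockout minus control) with 95% interval for 26 neurotrophin partners and 14 GDNF partners, with filled symbols for a limma adjusted p under 0.05. Sort1 is the lowest and Plat the highest of the first list, and Src the highest of the second.

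For each member the 3 tested genes with the most similar profile were found, as the smallest root mean square distance between log2 values over the 8 libraries after centring each gene. For Gfra1 these were Cercam, Ptk7 and Sorcs2, at distances of 0.187, 0.202 and 0.221, where the median over all genes was 0.988. Cercam had 139 ± 65.7 and 353 ± 43.4 normalised reads and Ptk7 69.6 ± 28.0 and 245 ± 64.5, differences that the choice by likeness to Gfra1 includes. For Ntrk2 the nearest were Slit3, Pde5a and Gsn (up to 0.144, median 0.608), and for Ret they were Cd300lb, Plpp2 and Sod3 (0.227 to 0.232, median 0.757). For Ngfr they were Sh3d21, Zfp472 and Proca1 (0.186 to 0.239), for Ntf3 Basp1, Kntc1 and Mettl25 (0.219 to 0.25), and for Ntrk3 Gm826, Ush1g and Fbxl12os (0.258 to 0.283). For Gfra2 they were Klk8 (0.095), Serpini1 and Akap12 (0.272 and 0.292), for Gdnf Gm9828, Cyp39a1 and 1810059H22Rik (0.177 to 0.199), and for Bdnf Phf2os1, Kdm6a and Per3 (0.111 to 0.143). Between members the smallest distance was that of Ngfr and Gdnf, 0.434. The distances to the 3 nearest genes were picked as the smallest over all tested genes, so they cannot be set against this value.

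Single libraries moved several members at once. Control replicate 3 held the highest control value of 4 of the 9 genes (Ngfr, Gdnf, Gfra1 and Ret), and replicate 3 labelled knockout the highest of its group for 5 (Ntf3, Ngfr, Ntrk3, Gdnf and Gfra2) but the lowest for Ntrk2 and Gfra1. Control replicate 4 was lowest for 4 (Bdnf, Ngfr, Gdnf and Gfra1), and it also had the lowest Schwann cell sum, 1842, and fibroblast sum, 29910, of all 8. Replicate 3 labelled knockout had the lowest fibroblast sum of its group, 122900, and the highest Schwann cell sum of all. The part of tissue composition in these patterns was not tested. Of 17 neuron markers 7 were tested and 0 were called by limma. Tubb3 came nearest (20.7 ± 11.1 and 51.6 ± 25.1, groups not overlapping, adjusted p = 0.0511) and was called in 4 of 17 alternative fits, among them DESeq2 (adjusted p = 0.0221) and the fit without control replicate 3 (0.0262), and the 10 measured markers summed to 617 to 742 in controls and 516 to 748 in the libraries labelled knockout.

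The markers of the other cell types a joint can hold were counted in the same fit, as a description of the tissue around these receptors. In the synovial lining list 1 of 4 was called higher (Htra4, 1.18, limma adjusted p = 0.0164) and Prg4, lubricin, was near (1.03, 0.0503). All 8 macrophage markers were called higher, C1qb (1.28, 0.00399) and Cd68 (1.71, 0.00687) among them. All 8 osteoblast markers were higher and 4 were called, with Alpl (1.19, 0.02) and Runx2 (1.75, 0.0206). Of 10 chondrocyte markers 9 were higher and 1 was called (Hapln1, 1.28, 0.0165), a share near the 11.6% of all tested genes called higher. Comp was at 0.91 (0.0501). Hapln1 lost its call with the replicate block (0.0511) and without replicate 4 labelled knockout (0.0513). Alpl lost its call without control replicate 2 or 4 or replicate 1 labelled knockout (0.0516 to 0.0551), and Runx2 without control replicate 4 or replicate 1 or 4 labelled knockout (0.0537 to 0.0558). All 16 muscle markers were lower and 6 were called, Casq1 (-0.79, 0.0075) and Pygm (-0.92, 0.00848) among them, where 11.6% of all tested genes were called lower. In the pericyte and smooth muscle list Cspg4 rose (0.74, 0.0277) and Des, also a muscle gene, fell (-0.69, 0.0102). Des lost its call with the replicate block (0.0509), and Cspg4 without control replicate 1, 2 or 4 or replicate 2 or 4 labelled knockout (0.0614 to 0.0818). No satellite cell (Myod1 -0.45, 0.0534, and Myog -0.36, 0.323) or endothelial marker (Kdr -0.35, 0.457, and Cdh5 -0.22, 0.535) was called in this limma fit. Nor was any erythroid (Alas2 -1.99, 0.0758, and Hbb-bs -1.95, 0.0786) or neutrophil marker (Elane -1.77, 0.129, and Mpo -1.16, 0.281). The neuron marker Avil was at -0.63 (0.13). In the 18 alternative fits other than the muscle score, Comp was called in 8, Prg4 in 7 and Myod1 in 6. The fits that called Myod1, whose groups did not overlap, included edgeR (adjusted p = 0.0493) and DESeq2 (adjusted p = 0.031). Hbb-bs was called in 2 of the 18, and Alas2, Cdh5 and Avil in 1 each.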

How the data were processed

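The authors deposited 1 normalised signal per gene and library. Per the series' design text, reads were aligned to mm10, counted per gene with featureCounts and normalised with DESeq2, and HISAT2 is named in the submitters' processing notes; versions, annotation, strand setting and filter values are not given in the sources used here. In each column 100% of values were whole multiples (within 0.01) of the smallest positive value, and that step equalled the inverse of the size factor, so whole reads were recovered by division; for control 2 and knockout 1 that step is so close to 1 that it shows little by itself. No library was taken as a duplicate, since each within-group pair differed beyond counting error (chi-square per degree of freedom 25.79 to 66.1).

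Genes reaching 10 in 4 or more of the 8 libraries were tested on log2(value + 1) with limma 3.58.1 (intensity trend) and 1 group term. Benjamini-Hochberg adjustment ran over all tested genes, with calls at an adjusted p under 0.05. Log2 differences on this scale understate the change of low genes. A p given alone in parentheses after a log2 difference is this limma adjusted p. Single values and ratios were compared by exact two-sided permutation over 70 assignments. edgeR 4.0.16 and DESeq2 1.42.0 were run on the recovered reads as alternatives. The fits were tested on simulated data with known changes in 195 of 14709 genes. There limma made 152 calls, 9 of them false, edgeR 154 with 12 false, and DESeq2 206 with 48 false. Of the simulated log2 changes of 1, limma found 58.8%, edgeR 57.7% and DESeq2 70.1%. The simulation held no shift of tissue composition and no deviating library, and in the data limma called 23.2% of genes. These rates therefore need not hold for the data. Coordinates and exon lengths come from GENCODE M21 (GRCm38).

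The members, gene lists, tests and alternatives were chosen with earlier results of these data known. Named were the 9 members, Loxl2, other ligands and receptors, at most 6 called partners per list and direction, 3 genes of nearest profile per member, and 2 genes of smallest p from each cell type list. Sorcs2 entered through its profile. Some items are not reported here.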

Additional observations from a re-analysis of the deposited data

Results flagged for a closer look

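In 38 groups of 4 libraries (the 9 members, Loxl2, 6 other ligands and receptors, and 3 ratios), 1 library was set apart from the other 3 by a gap above Dixon's 95% critical value in 5, where chance gives about 1 in 20. Control replicate 3 was the high library for Ngfr, at 30.8 normalised reads against 10.95 to 13.1 in the other controls, and for Loxl2, at 1135 against 282 to 349. Control replicate 2 was high for Bdnf, at 30.3 against 17.5 to 19.5. Among the libraries labelled knockout, replicate 3 was high for Ntf5, at 136 against 89.8 to 91.5. Control replicate 4 was low for Artn, at 5.48 against 10.1 to 10.8.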

How the results depend on the processing

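The 95% intervals of all 9 members span more than 1 in log2, and a missed threshold does not show that a gene was unchanged. The number of genes called was 3461 and moved to 2018 with the replicate block and to 0 with the muscle score as a covariate (667 at an unadjusted p under 0.05). Leaving out 1 library gave 1740 (without replicate 4 labelled knockout) to 3832 genes, with 1909 without control replicate 2 and 2209 without control replicate 4. Of the called genes 1732 were higher, against 2773 of 3532 (78.5%) when libraries were scaled to equal sums after removing muscle, erythroid, neutrophil and the 50 highest genes, a setting chosen after seeing the data that moved the median of all genes to 0.15. The number of members called higher was 1 throughout, apart from 0 with the muscle score and 1 to 2 when a library was left out (2, with Ret, without replicate 1 labelled knockout), and 0 members were called lower in any fit. The filter on a mean of at least 50 left 4 members.

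Same-numbered libraries did not deviate together (correlations across genes of 0.21, -0.12, -0.23 and -0.06 for numbers 1 to 4), so the numbers were not taken as pairs. With the replicate block Gfra1 stayed called (adjusted p = 0.0414), and the paired exact tests of the 3 ratios gave p = 0.25, 0.5 and 0.625, a design in which no p under 0.05 is possible. The Gfra1 to Gfra2 ratio difference ranged from 0.96 to 1.89 when a library was left out. The Ngfr to Ntrk2 ratio difference ranged from -0.40 to 0.11 and turned to 0.09 without control replicate 2 or 3 and to 0.11 without replicate 4 labelled knockout.

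On leaving out 1 library, Bdnf ranged from -0.008 (replicate 4 labelled knockout) to 0.323, Ntrk3 from -0.072 (control 1) to 0.451, Gdnf from -0.095 (control 4) to 0.416, and Gfra2 from -0.128 (replicate 3 labelled knockout; -0.02 without control 2) to 0.48. Gfra4 ranged from -0.172 (replicate 1 labelled knockout) to 0.337, with -0.15 without control 2 and -0.029 without replicate 4 labelled knockout. With the muscle score as covariate, log2 differences that had been positive came to -0.36 (Ntrk2), -0.32 (Ret), -0.14 (Nrtn), -0.72 (Gfra3), -1.40 (Gfra4), -0.14 (Shc1), -0.12 (Shc2), -0.072 (Pdgfra), -0.26 (Htra4) and -0.056 (Prg4). Those that had been negative came to 0.52 (Avil), 0.74 (Myog), 0.71 (Kdr), 0.67 (Cdh5), 1.32 (Alas2), 0.98 (Hbb-bs) and 0.80 (Mpo). The cause was not tested. Sh2b1 (limma adjusted p = 0.0781), Bex1 (0.0971), Ptpn11 (0.0621) and Pard3 (0.183) lost their calls under the equal-sum scaling. Over all alternatives and single genes, those named here included, 1024 values kept direction and side of the threshold. With direction kept, 104 lost a call and 34 gained one. In 25 the direction turned, some of them losing a call as well.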
